A study of Mus musculus
Rattus norvegicus and Rattus norvegicus and Mus musculus with 18 samples.

Results

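Keratins are the intermediate filament proteins of epithelial cells, and 8 of them are described here: Krt5, Krt14, Krt15 and Krt17, which mark the basal layer of stratified and glandular epithelia, and Krt7, Krt8, Krt18 and Krt19, which mark luminal and other simple epithelia. They were chosen by gene symbol, in mouse genes for the tumor cells and in rat genes for the host. All 8 were present among the 17672 mouse genes and all 8 among the 14876 rat genes of the deposited tables, which makes 16 genes in all.

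PolyA RNA was sequenced from SRG rats, an immunodeficient strain, whose mammary fat pad had received 4T1 cells. 4T1 is a mouse line from a mammary carcinoma that spreads to the lung. Reads were assigned to mouse or rat, so mouse genes stand for 4T1 cells and rat genes for host tissue. At day 27, lungs (5 libraries) and primary tumors were taken, and each tumor was divided into its necrotic core and its non-necrotic rim (5 libraries each, from the same 5 rats). Controls were a pellet of cultured 4T1 cells (1 library, no host) and mammary gland of rats without a graft (2 libraries). The genotype is labelled wildtype and the treatment as none in every group. All grafts came from 1 cell line, so the mouse values hold no genetic replication, and the replicates are the rats. Rat3877, Rat3876, Rat3875 and Rat3869 gave a core, a rim and a lung, Rat3867 gave a core and a rim, and Rat3789 gave a lung. The sources used here do not state the age or sex of the rats.

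A keratin filament is built from pairs of a type I chain (here Krt14, Krt15, Krt17, Krt18 and Krt19) and a type II chain (Krt5, Krt7 and Krt8). Krt5 with Krt14 is the usual pair of basal epidermis and of mammary myoepithelium, and Krt8 with Krt18 is the first pair made in the embryo and the main pair of luminal mammary and other simple epithelia. Krt15 is known from basal keratinocytes and the hair follicle bulge, Krt17 from hair follicles and wounded skin, Krt7 from ducts and lung epithelium, and Krt19 from luminal and ductal cells.

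Because the genes are close relatives, the coding sequences decide which reads can be told apart, and the end of the conserved rod domain shows this for the type I genes. The stretches below were read from the mouse transcripts of GENCODE M21 (build GRCm38) and are 60 bases long. Capitals mark the bases that all 5 type I members share, 33 of 60.
Krt14: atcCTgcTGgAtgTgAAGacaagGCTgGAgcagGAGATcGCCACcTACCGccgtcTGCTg
Krt17: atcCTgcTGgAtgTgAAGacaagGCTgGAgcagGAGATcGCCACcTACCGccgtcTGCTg
Krt15: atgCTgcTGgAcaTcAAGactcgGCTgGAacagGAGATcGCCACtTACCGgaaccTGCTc
Krt19: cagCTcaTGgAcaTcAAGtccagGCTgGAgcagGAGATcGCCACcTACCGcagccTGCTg
Krt18: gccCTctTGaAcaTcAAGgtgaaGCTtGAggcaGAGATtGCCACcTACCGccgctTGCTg

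Krt14 and Krt17 are the same at all 60 bases, and their longest identical run is 71 bases. Krt14 and Krt18 share 41 of the 60 bases. Of the 50-base windows of the Krt14 coding sequence, 16.8% occur in another mouse gene (Krt16 or Krt17). The share was 36.1% for Krt8, all of it in the pseudogene Krt8-ps, and 10.8% for Krt5, mostly in Krt6a. It was 4.79% for Krt17, 0.832% for Krt15, 0.818% for Krt18, and 0 for Krt7 and Krt19. The sources used here do not say how reads with several matches were counted, so values of Krt14, Krt17, Krt8 and Krt5 carry that uncertainty.

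In mouse (GRCm38), the type I genes other than Krt18 lie together on chromosome 11, on the minus strand: Krt15 at chr11:100131758-100135928, Krt19 at chr11:100140810-100148665, Krt14 at chr11:100203162-100207548 and Krt17 at chr11:100256217-100261029. Krt18 lies with the type II genes on chromosome 15, at chr15:102028180-102032027 on the plus strand, next to Krt8 at chr15:101996698-102004482 on the minus strand. Krt7 is at chr15:101411043-101430313 (plus) and Krt5 at chr15:101707070-101712898 (minus). Krt7 overlaps the antisense gene Gm671, Krt8 the noncoding gene Gm36026 and Krt5 the microRNA gene Gm44323, each on the opposite strand. Whether counting used the strand is not stated, so reads of these pairs may not be separable.

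Tumor and lung libraries held 15346400 to 26669410 reads of mouse genes, and of rat genes 3146720 to 10015352. Levels are given as the deposited CPM, which the authors scaled by one constant per library within each species. Some libraries went against their labels. The lung of Rat3789 held rat Sftpc, the surfactant protein of alveolar type II cells, at 1.88 CPM, against 3126 to 5676 CPM in the other lungs. Its summed level of the 8 alveolar and airway markers in the table was 181 CPM, against 9723 to 17431 CPM in the other lungs and 67.6 to 185 CPM in the rims. Gland library 1 held 40 rat reads of Krt8 and 2 of Krt18, and 0 of Krt14 and Krt15, in 20692580 rat reads. Gland library 2 held 403, 341, 353 and 280 of these genes in 21387704. Both gland libraries were rich in skeletal muscle genes (5 markers summing to 178976 and 124773 CPM of rat reads). Member results that use the lung of Rat3789 are also given without it, and the gland libraries are given one by one. For rat Krt14, Krt15 and Krt17 between lung and rim, a range over all fits is given instead.

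**Figure D1:**
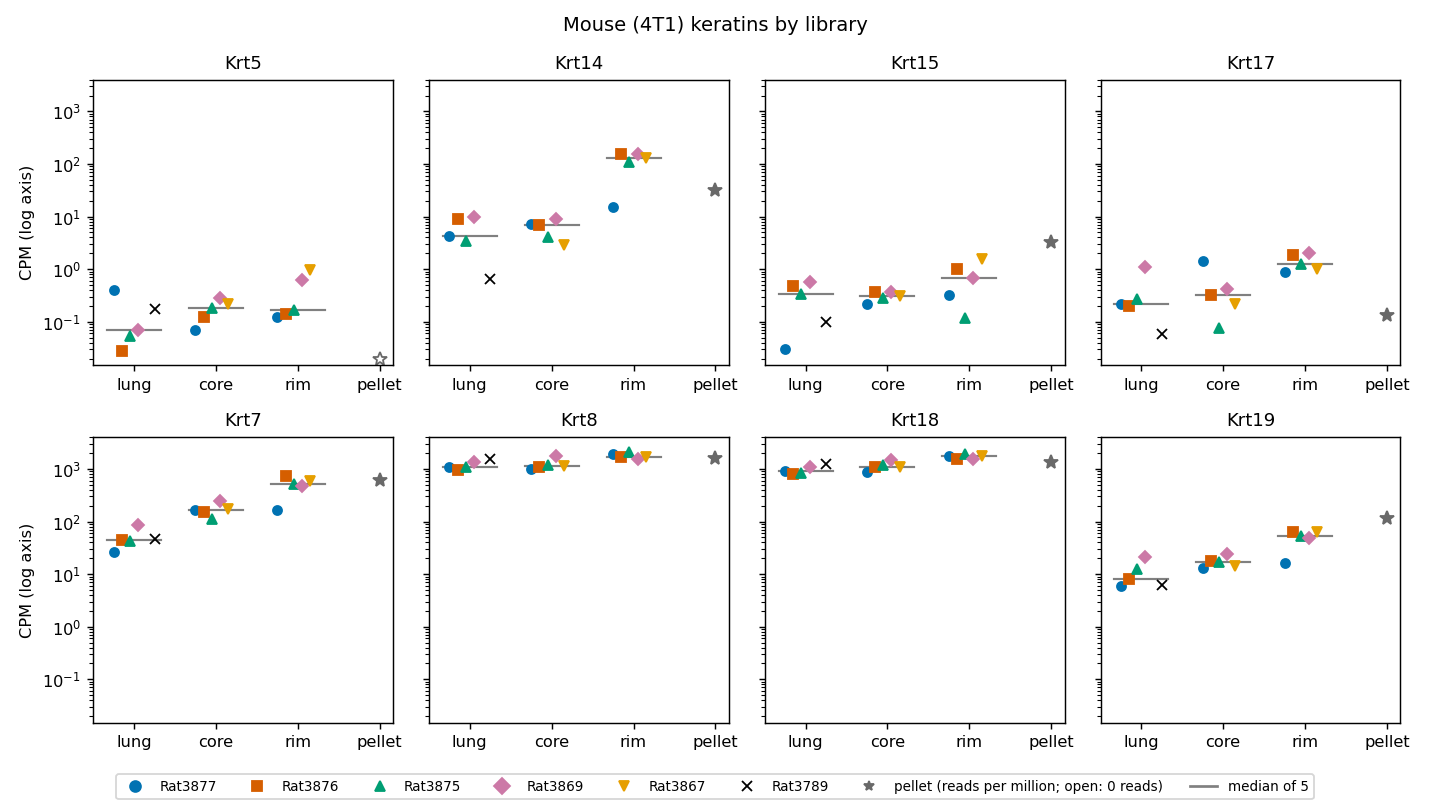
CPM of the 8 mouse keratins (log axis) in each lung, core and rim library, with the 4T1 pellet as CPM of its mouse reads. Colors and symbols mark the rats, grey lines the median of 5 libraries, and an open star 0 reads in the pellet. Krt8 and Krt18 stayed between 812 and 2059 CPM throughout, while Krt14 reached 107 to 156 CPM in 4 rims and 14.99 CPM in the rim of Rat3877.

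The 4T1 cells carried the luminal pair as their main keratins in every place. Per kilobase of transcript, Krt18 stood at 673 ± 124 CPM in the lung, 803 ± 152 CPM in the core, against 1187 ± 116 CPM in the rim, and Krt8 at 617 ± 116, 630 ± 160 and 908 ± 106 CPM (SD, n = 5 each). Krt14 per kilobase was 3.22 ± 2.29 CPM in the lung, 3.52 ± 1.45 CPM in the core, against 66.5 ± 34.3 CPM in the rim. Krt19 per kilobase was 6.87 ± 4.07, 10.9 ± 2.71 and 31.1 ± 12.6 CPM in the same order. Krt7 fell between Krt8 and Krt19 in each group, on its annotated transcript of 4094 bases as on its coding sequence of 1374 bases, but its length is uncertain over that range. Krt5, Krt15 and Krt17 reached at most 1.33 CPM per kilobase in any lung, core or rim.

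Expressed as a share, Krt14 per kilobase reached 0.558 ± 0.408% of Krt8 in the lung, 0.564 ± 0.221% in the core and 7.63 ± 4.35% in the rim (n = 5 each). The rim of Rat3877 had 0.903%, near the highest core at 0.836% and below the highest lung at 1.09%, while the other rims had 5.99 to 11.7%. Krt8 over Krt18, also per kilobase, was 0.880 to 0.976 in the lung, 0.716 to 0.886 in the core and 0.724 to 0.805 in the rim. The lungs lay above every rim in this ratio, and the core overlapped both. In the cultured pellet, the ratio was 0.875 and Krt14 was 2.27% of Krt8.

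The pellet gives the keratins of 4T1 cells without a host, from 1 library with no test. In its 29446694 mouse reads, the CPM values were 1622 for Krt8 (95% Clopper-Pearson interval 1608 to 1637), 1359.8 for Krt18 (1347 to 1373), 614 for Krt7 (605 to 623), 115 for Krt19 (111 to 119) and 31.9 for Krt14 (29.9 to 34.0). Krt15 had 95 reads, Krt17 4 and Krt5 0, with an interval for Krt5 of 0 to 0.125 CPM. These intervals cover counting error only. The pellet was scaled apart from the tumor libraries, so a level set across them is a description. On that footing, Krt14 of the pellet lay between the rim of Rat3877 and the other rims, and Krt19 lay above every tumor and lung library.

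Between the necrotic core and the rim, the basal keratin Krt14 changed most among the mouse members. It stood at 7.17, 6.81, 4.02, 8.94 and 2.92 CPM in the cores of Rat3877, Rat3876, Rat3875, Rat3869 and Rat3867, against 14.99, 156, 107, 155 and 131 CPM in the rims of the same rats. Every core lay below every rim, and the rim of Rat3877 stood far below the other 4. The log2 difference was -3.98 ± 0.53 (SE; 15.8-fold lower in the core; limma with the rat as a block, adjusted p = 0.00263), and without Rat3877 it was -4.71 ± 0.21.

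Krt17 was near the detection limit, at 1.44, 0.322, 0.0768, 0.413 and 0.217 CPM in the cores and 0.873, 1.84, 1.26, 2.06 and 1.02 CPM in the rims, in the same order of rats. It was lower in the core in 4 of 5 rats and higher in Rat3877. The difference of -2.08 ± 0.60 passed the threshold (limma, adjusted p = 0.0417) but rests on 1 to 44 reads per library. Krt17 entered the test mainly through its rim values, with 4 rims and 1 core (Rat3877) at 1 CPM or more. With edgeR on whole reads the adjusted p was 0.0642, and it was above 0.05 without Rat3867 (0.110), Rat3869 (0.100), Rat3875 (0.134) or Rat3876 (0.108). Krt14 shares 55 of its 50-base windows with Krt17 and moved with it, and the part of shared reads in the Krt17 values was not tested.

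Krt5, the type II partner of Krt14, was near the detection limit. It had 1 to 6 reads per core and 2 to 19 reads per rim, and the highest rim value was 0.973 CPM. Krt15 had 4 to 8 reads per core and 2 to 31 per rim. Neither passed the filter of at least 1 CPM in at least 5 libraries, so neither was tested. Each was lower in the core in 4 of 5 rats. Rims with more than 100 CPM of Krt14 thus held at most 1.57 CPM of Krt5 or Krt15.

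The luminal keratins were lower in the core by smaller steps. Krt7 stood at 165, 153, 112, 248 and 171 CPM in the cores of Rat3877, Rat3876, Rat3875, Rat3869 and Rat3867, against 168, 728, 515, 477 and 583 CPM in the rims. It was lower in the core in 5 of 5 rats, but in Rat3877 core and rim were nearly equal, and that rim lay below the core of Rat3869. The log2 difference was -1.44 ± 0.30 (limma, adjusted p = 0.0124), -1.79 ± 0.20 without Rat3877, and it missed the threshold without Rat3875 (adjusted p = 0.0512).

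Krt19 had 12.99, 18.01, 17.0, 23.9 and 14.02 CPM in the cores and 15.9, 64.1, 52.9, 47.7 and 64.1 CPM in the rims, in the same order. As for Krt7, 4 rims lay above every core and the rim of Rat3877 lay among the cores. The difference was -1.39 ± 0.25 (limma, adjusted p = 0.00714) and -1.67 ± 0.19 without Rat3877.

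Krt18 had 875, 1108, 1215, 1476 and 1093 CPM in the cores and 1745, 1575, 1947, 1526 and 1739 CPM in the rims. Every core lay below every rim, here including the rim of Rat3877. Krt18 fell by 0.58 ± 0.14 on the log2 scale (1.5-fold; limma, adjusted p = 0.0203), with adjusted p of 0.0729, 0.0811 and 0.0513 without Rat3867, Rat3875 or Rat3876, and 0.0995 without Rat3876 and Rat3877.

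Krt8 had 989, 1099, 1186, 1781 and 1117 CPM in the cores and 1915, 1669, 2059, 1533 and 1715 CPM in the rims. It was lower in the core in 4 of 5 rats and higher in Rat3869. The difference was -0.55 ± 0.16 (limma, adjusted p = 0.046). It kept its sign but not its call without Rat3867, Rat3875, Rat3876 or Rat3877 (adjusted p 0.100 to 0.155), and without both Rat3876 and Rat3877 (0.223).

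Over this comparison, 6 of the 8 mouse members were tested and 6 were lower in the core, Krt17 with the limit given above. Of all 13070 mouse genes tested, 9.63% were called lower, 10.1% higher and 19.8% in either direction. Bulk RNA cannot tell fewer cells of a type from less RNA per cell.

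**Figure D2:**
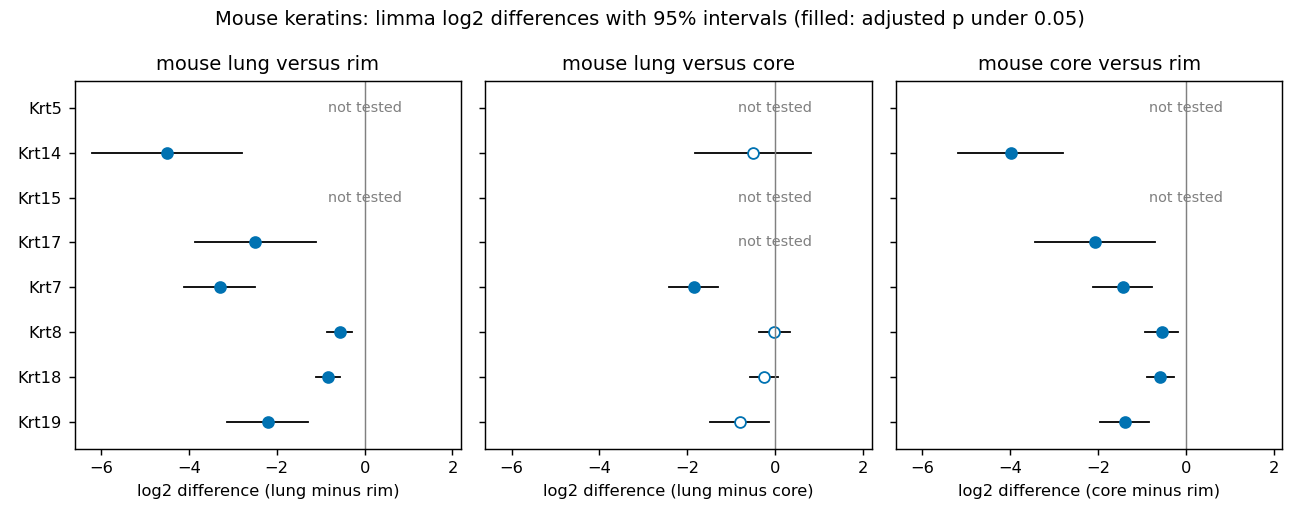
Limma log2 differences of the mouse keratins with 95% intervals, for lung minus rim, lung minus core and core minus rim. Filled points had an adjusted p under 0.05. Krt14 lay at -4.50 and -3.98 against the rim but its interval spanned 0 between lung and core, where Krt7 alone was called.

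Genes that work with keratins gave mixed results between core and rim in 4T1 cells. Of 14 basal program genes in the table, 13 were tested, 6 were lower in the core and 1 was higher (median log2 difference -0.69, against 0.01 over all genes tested). Over all genes tested, 9.63% were called lower and 10.1% higher. Lamb3, a chain of laminin-332, averaged 18.8 ± 5.55 CPM in the core, against 218 ± 118 CPM in the rim (-3.38 ± 0.28, limma adjusted p = 0.000555). Sfn, the epithelial 14-3-3 protein, averaged 15.3 ± 8.47 CPM in the core, against 99.9 ± 15.5 CPM in the rim (-2.84 ± 0.20, adjusted p = 0.000393). Tfap2c, an AP-2 transcription factor, was higher, at 3.65 ± 1.29 CPM in the core, against 0.469 ± 0.368 CPM in the rim (3.40 ± 0.48, adjusted p = 0.00318). Tfap2c was under 1 CPM in every rim and passed the filter through the cores. Trp63, the transcription factor of basal cells, had 3.42 ± 2.22 CPM in the core, against 0.816 ± 0.618 CPM in the rim and was not called (2.49 ± 0.81, adjusted p = 0.0631).

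Of 15 luminal program genes tested, 3 were lower in the core and 0 higher (median -0.14). Cldn7, a claudin, fell by 1.44 ± 0.38 (limma, adjusted p = 0.0292) and the adhesion molecule Epcam fell by 1.2 ± 0.21 (0.00723). Of 12 keratin partners, 3 were lower, among them the desmosome protein Pkp2 (-0.71 ± 0.12, 0.0059) and the filament linker Plec (-0.69 ± 0.10, 0.00403). Of 5 general epithelial genes 2 were lower, and of the 3 other keratins tested 0 were called at the adjusted threshold by limma. Without Rat3877, 7 basal program, 5 luminal program and 5 partner genes were lower, and 1 of each list was higher.

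The marker lists of other tissues were little represented among mouse genes: the adipocyte list had 0 of 5 genes in the mouse table. Of the few tested, Csn3, a casein, was higher in the core (1.5 ± 0.39, limma adjusted p = 0.0297), as were the aquaporin Aqp5 (3.62 ± 0.64, 0.00683) and the kinase Mylk (0.89 ± 0.24, 0.0347), while the actin Acta2 (-1.69 ± 0.32, 0.00935) and the troponin Tnnt3 (-1.02 ± 0.26, 0.0273) were lower. Csn3 went the other way in Rat3877, whose rim held 32.4 CPM and whose core held 21.6 CPM. That rim lay above every core. Aqp5 passed the filter mainly through the cores (5 cores and 1 rim at 1 CPM or more). Of 2 tested epidermal genes and 1 mesothelial gene, 0 were called by limma. The gland libraries had no 4T1 cells. Yet myoepithelial markers summed to 112 and 329 CPM of their mouse reads, and skeletal muscle markers to 1112 and 801 CPM. In lung, core and rim these lists reached at most 33.3 and 20.8 CPM. The part of rat reads in the mouse values of these lists was not tested.

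In the lungs, the question is which keratins 4T1 cells carried outside the primary tumor, and 2 comparisons share the lung libraries. Krt14 stood at 4.34, 9.19, 3.42, 9.72 and 0.654 CPM in the lungs of Rat3877, Rat3876, Rat3875, Rat3869 and Rat3789, against the 14.99 to 156 CPM of the rims. Every lung lay below every rim, and the lung of Rat3789 was the lowest. Krt14 was 22.6-fold lower in the lung than in the rim (-4.50 ± 0.78, limma without a block, adjusted p = 0.0030), and the difference was -3.86 ± 0.64 without Rat3789. It did not pass the test between lung and core (-0.51 ± 0.61, 95% interval -1.83 to 0.81), and without Rat3789 that difference had the opposite sign (0.13).

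Krt7 showed the clearest step between places. It had 26.6, 43.9, 42.5, 84.8 and 45.6 CPM in the lungs of Rat3877, Rat3876, Rat3875, Rat3869 and Rat3789, against 112 to 248 CPM in the cores and 168 to 728 CPM in the rims. The lungs lay below all cores and all rims. The log2 difference was -3.30 ± 0.37 against the rim (limma, adjusted p = 0.000369) and -1.86 ± 0.26 against the core (0.000192). Without Rat3789 these were -3.30 ± 0.41 and -1.86 ± 0.28. The lung of Rat3789 held 4 rat reads of Krt7 and the other lungs 3161 to 4612. Its mouse Krt7 value lay second highest of the 5. This library lacked the surfactant level of the other lungs, and no test of rat reads in mouse Krt7 was drawn from it.

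Krt19 had 5.94, 8.12, 12.6, 21.2 and 6.21 CPM in the same lungs. The lung of Rat3869 overlapped the cores (12.99 to 23.9 CPM) and the rim of Rat3877 at 15.9 CPM. The difference was -2.20 ± 0.42 against the rim (limma, adjusted p = 0.00497). Against the core it was -0.81 ± 0.31 and missed the threshold (adjusted p = 0.0581), while the fit with the rat as a block gave -0.72 with adjusted p = 0.0201 and the fit without Rat3869 gave -0.97 with 0.0081. Without Rat3789 Krt19 differed by -2.05 ± 0.44 from the rim and by -0.65 ± 0.31 from the core.

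Krt18 had 901, 812, 825, 1071 and 1227 CPM in the lungs, and Krt8 had 1089, 974, 1098, 1345 and 1532 CPM. For Krt18 and Krt8 alike, each lung lay below the lowest rim (1526 and 1533 CPM), though the lung of Rat3789 came within 1 CPM of it for Krt8. Against the rim Krt18 fell by 0.83 ± 0.12 (limma, adjusted p = 0.00134) and Krt8 by 0.57 ± 0.13 (0.012; 0.0659 without Rat3875 and 0.163 without Rat3876 and Rat3877). Without Rat3789 Krt18 fell by 0.92 ± 0.11 and Krt8 by 0.66 ± 0.12. Against the core Krt18 differed by -0.25 ± 0.15 (95% interval -0.58 to 0.07), and the blocked fit gave -0.36 with adjusted p = 0.0472. Krt8 differed by -0.02 ± 0.17 (interval -0.38 to 0.34), and its sign turned with total-count scaling (0.07). Without Rat3789 these differences from the core were -0.34 ± 0.14 and -0.11 ± 0.16, and neither was called.

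Krt17 had 1 to 24 reads per lung and was lower than in the rim (-2.49 ± 0.63, limma adjusted p = 0.0179; 0.0611 without Rat3875, 0.0795 without Rat3876 and 0.162 without Rat3876 and Rat3877), and the difference was -1.99 ± 0.53 without Rat3789. It entered this test mainly through its rim values, with 4 rims and 1 lung at 1 CPM or more, so its direction was favored by the filter. Krt5 had 0 to 6 reads per lung and Krt15 0 to 12, and neither was tested. Of the 6 members tested between lung and rim, Krt17 among them, 6 were lower in the lung, where 10.2% of 12970 mouse genes were called lower, 9.91% higher and 20.1% in either direction. Of the 5 tested between lung and core, 1 was lower, where 19.1% of 13058 genes were called lower and 36.3% were called in either direction.

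The luminal program genes were lower in the lung in larger numbers than they were called in the core. Against the rim, 9 of 15 tested were lower and 0 higher (median -0.98, against 0.01 over all genes), led by the claudins Cldn4 (9.19 ± 5.97 CPM in the lung and 322 ± 212 CPM in the rim, -4.99 ± 0.61, limma adjusted p = 0.000525) and Cldn3 (-3.91 ± 0.56, 0.00111). Against the core, 11 of 15 were lower (median -0.86), led by Cldn3 (-4.09 ± 0.46, 4.63e-05) and Cldn4 (-3.87 ± 0.36, 1.66e-05). Whether the counts of these comparisons differ was not tested, and they share libraries. Over all genes tested, 10.2% were called lower against the rim and 19.1% against the core. Of the 5 general epithelial genes, 4 were lower against the rim and 4 against the core, with Epcam at -3.11 ± 0.32 (0.000226) and -1.91 ± 0.23 (7.05e-05).

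Of 11 basal program genes tested between lung and rim, 7 were lower, led by Lamb3 (-3.68 ± 0.49, limma adjusted p = 0.000735) and Lama3, another laminin-332 chain (-3.08 ± 0.72, 0.0126). Between lung and core, 3 of 13 were lower and 2 higher: Trp63 (-4.10 ± 0.54, 0.000127) had the largest decrease of the list, having passed the filter through the cores alone, and Sfn (0.99 ± 0.35, 0.0431) and the integrin Itgb4 (0.48 ± 0.14, 0.0151) were the increases, of which 0 were called without Rat3877. Over all genes tested between lung and core, 19.1% were called lower, 17.1% higher and 36.3% in either direction. The basal program counts of that comparison lay near these shares. Of 12 keratin partners, 4 were lower against the rim, led by the desmosome proteins Jup (-2.43 ± 0.23) and Dsp (-1.71 ± 0.28). Against the core 5 were lower, again led by Jup (-1.90 ± 0.16) and Dsp (-1.35 ± 0.23), and 2 were higher, Plec (0.96 ± 0.13) and Eppk1 (0.61 ± 0.18). Among other keratins, Krt80 was lower against the rim (-1.52 ± 0.41, 0.0233).

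Of the remaining lists in mouse genes, the changes between lung and rim were Mylk (2.0 ± 0.25), Acta2 (-1.68 ± 0.37) and Aqp5 (2.53 ± 0.66). Between lung and core they were Mylk (1.11 ± 0.29), Csn3 (-1.88 ± 0.43), Tnnt3 (1.40 ± 0.22), the alveolar receptor gene Ager (-1.57 ± 0.41) and mesothelin, Msln (1.70 ± 0.33), all at a limma adjusted p under 0.05. Aqp5 passed the filter mainly through the lungs (1 rim at 1 CPM or more) and Ager mainly through the cores (1 lung). For Mylk, Acta2 and Tnnt3 the limit given above from the gland libraries holds here too.

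**Figure D3:**
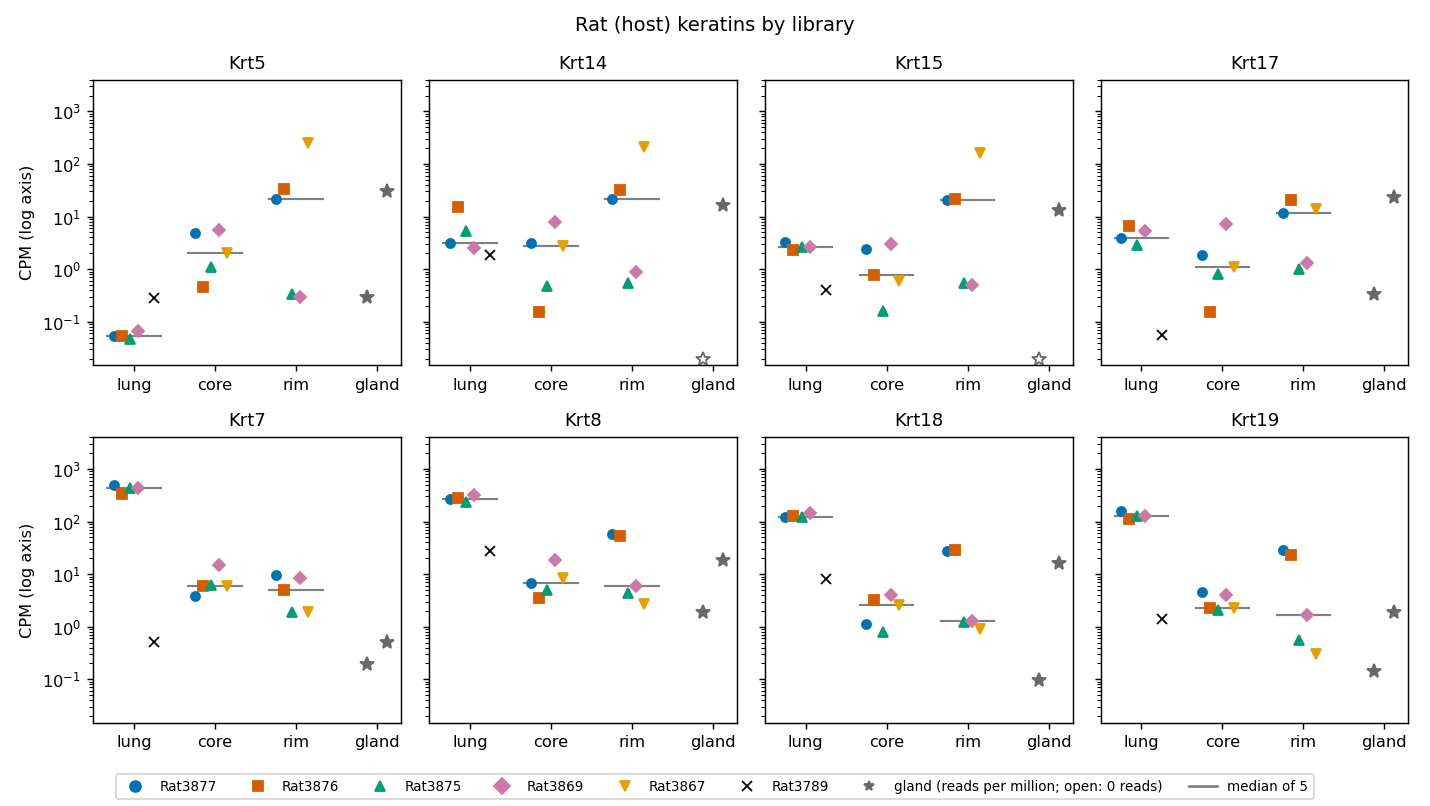
CPM of the 8 rat keratins (log axis) in each lung, core and rim library, with the gland libraries as CPM of their rat reads. Grey lines are the median of 5, and an open star marks 0 reads in a gland. The rims of Rat3867, Rat3876 and Rat3877 stood above the other rims in Krt5, Krt14, Krt15 and Krt17, and the lung of Rat3789 stood below the other lungs in Krt7, Krt8, Krt18 and Krt19.

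In the host, keratin levels differed widely between rims. Basal and luminal members were both high in the rims of Rat3877 and Rat3876 and both low in those of Rat3875 and Rat3869, while the rim of Rat3867 was high in basal members only. Rat Krt5 stood at 21.9, 33.5, 0.334, 0.297 and 253 CPM in the rims of Rat3877, Rat3876, Rat3875, Rat3869 and Rat3867. Krt14 followed with 21.1, 31.9, 0.556, 0.891 and 208 CPM, and Krt15 with 20.5, 21.9, 0.556, 0.495 and 163 CPM. The rims of Rat3875 and Rat3869 held 1 to 4 reads of each of these genes, and that of Rat3867 held 810 to 1256.

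Of the luminal members, rat Krt8 stood at 58.1, 54.0, 4.34, 6.04 and 2.72 CPM in the rims of the same rats in that order, and Krt18 at 27.4, 29.1, 1.22, 1.29 and 0.906 CPM. Krt19 had 28.7, 23.6, 0.556, 1.68 and 0.302 CPM. The rims of Rat3877 and Rat3876 stood above the other 3, and the rim of Rat3867, highest in Krt5, Krt14 and Krt15, was the lowest in Krt8, Krt18 and Krt19. Krt7 stayed at 1.89 to 9.83 CPM in every rim, and Krt17 had 11.8, 21.1, 1.00, 1.29 and 13.8 CPM.

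**Figure D4:**
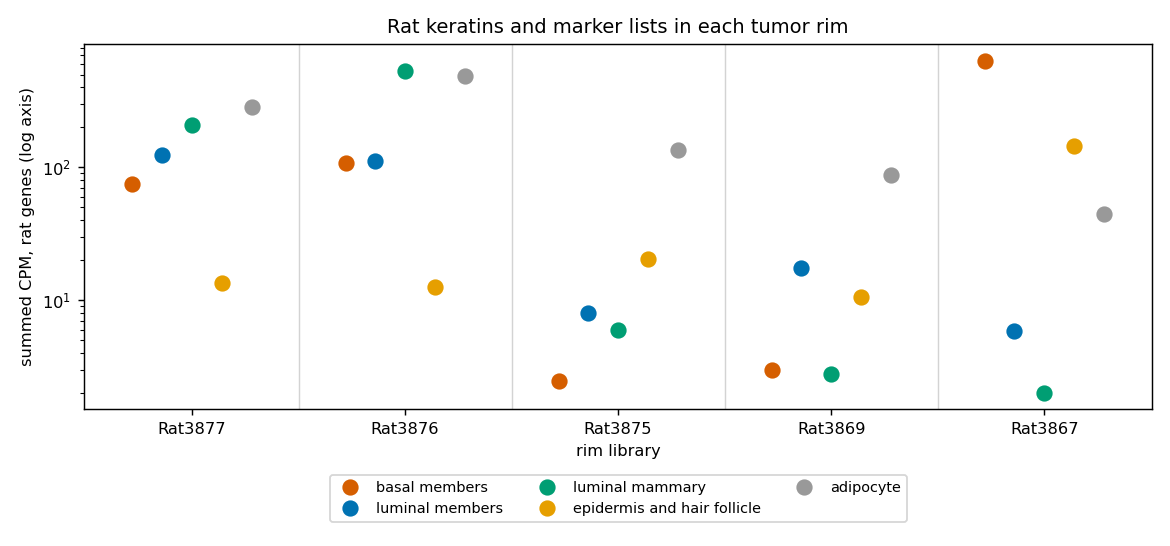
Summed rat CPM (log axis) of the basal members, the luminal members and 3 marker lists in each rim library. In the rim of Rat3867 the basal members (638 CPM) and epidermal markers (144 CPM) were high, and in the rims of Rat3876 and Rat3877 the luminal mammary markers (531 and 209 CPM) were high.

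Some markers of tissues that could lie at a tumor's edge moved with these rims, and others did not. In the rims of Rat3877 and Rat3876, Csn3, a milk protein, stood at 117 and 311 CPM and Lalba, alpha-lactalbumin, at 76.0 and 172 CPM. In the rims of Rat3875, Rat3869 and Rat3867, Csn3 stayed at 0.302 to 4.34 CPM. The 6 luminal mammary markers in the table summed to 209 and 531 CPM in the rims of Rat3877 and Rat3876 and to 2.01 to 6.01 CPM in the other 3. The 5 adipocyte markers summed to 283 and 488 CPM in the rims of Rat3877 and Rat3876 and to 136, 87.4 and 44.2 CPM in the rims of Rat3875, Rat3869 and Rat3867, and Adipoq, the adipocyte hormone, was at 32.6 and 117 CPM in the first pair. The 6 myoepithelial markers, most of which smooth muscle also expresses, summed to 1567, 1797, 1059, 2445 and 1446 CPM in the rims of Rat3877, Rat3876, Rat3875, Rat3869 and Rat3867. That list was highest in the rim of Rat3869, which held 1 to 4 reads of Krt5, Krt14 and Krt15.

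In the rim of Rat3867, the suprabasal epidermal keratins Krt1 and Krt10 stood at 33.7 and 37.1 CPM and the galectin Lgals7 at 58.7 CPM. In the other rims Krt1 was at most 0.334 CPM, Krt10 at most 5.25 CPM and Lgals7 at most 5.06 CPM. The 5 epidermal and hair follicle markers in the table summed to 144 CPM there and to 10.6 to 20.6 CPM in the other rims. The part of mammary gland or skin in the keratin values was not tested.

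The gland gives a reference for the mammary set. In gland library 2, CPM of rat reads were 30.5 for Krt5 (95% Clopper-Pearson interval 28.2 to 32.9), 16.5 for Krt14 (14.8 to 18.3), 13.1 for Krt15 (11.6 to 14.7), 23.7 for Krt17 (21.7 to 25.9), 18.8 for Krt8 (17.0 to 20.8), 15.9 for Krt18 (14.3 to 17.7), 1.87 for Krt19 (1.34 to 2.55) and 0.514 for Krt7 (0.257 to 0.920). Library 1 held at most 1.93 CPM of any of them, and its Epcam was at 0.338 CPM, against 10.8 CPM in library 2. The intervals cover counting error only.

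The cores held few host keratin reads, as did the rims of Rat3875 and Rat3869. Krt5 was at 0.463 to 5.51 CPM, Krt14 at 0.154 to 7.72 CPM, Krt15 at 0.159 to 2.99 CPM and Krt17 at 0.154 to 7.09 CPM. Krt8 was at 3.55 to 18.4 CPM, Krt18 at 0.795 to 3.94 CPM, Krt19 at 2.07 to 4.67 CPM and Krt7 at 3.91 to 14.7 CPM, each with its maximum in Rat3869 except Krt19, which was highest in Rat3877. Core and rim overlapped in all 8 members. In Rat3869 every member was higher in the core than in the rim (Krt5 at 5.51 against 0.297 CPM). Krt14, Krt15 and Krt17 were lower in the core in 4 of 5 rats. Krt5 and Krt18 were lower there in 3, Krt8 and Krt19 in 2 and Krt7 in 1.

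Of the 8 members tested between rat core and rim, 0 were called by limma with the rat as a block. By the same test, 37.6% of all 13559 rat genes tested were called, 17.5% of all as higher in the core and 20.1% of all as lower. At an unadjusted p under 0.05 the count was 1, Krt15. Krt15 differed by -3.04 ± 1.25 (adjusted p = 0.0903), Krt14 by -2.75 ± 1.39 (0.155), Krt17 by -2.25 ± 1.15 (0.162) and Krt5 by -1.86 ± 1.53 (0.372, 95% interval -5.35 to 1.63). Limma-voom on whole reads called Krt5 (-4.80), Krt14 (-4.57), Krt15 (-4.79) and Krt18 (-2.44), and edgeR called Krt15 (-4.27, adjusted p = 0.0199). Without Rat3869, limma called Krt14 (-4.22), Krt15 (-4.45) and Krt17 (-3.43). Rat3869 was the only rat with more of these 3 genes in its core than in its rim. There Krt14 stood at 7.72 against 0.891 CPM, Krt15 at 2.99 against 0.495 and Krt17 at 7.09 against 1.29. Leaving Rat3869 out thus favored these calls.

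Krt8 (-0.73 ± 0.83), Krt18 (-1.05 ± 0.91), Krt19 (0.02 ± 0.92, interval -2.09 to 2.12) and Krt7 (0.61 ± 0.44) were not called between core and rim. Without Rat3876 and Rat3877, whose rims held milk genes, Krt8 (1.14), Krt18 (0.83) and Krt19 (2.02) lay on the side of the core, and Krt7 was called higher there (1.37 ± 0.38, limma adjusted p = 0.0402; 0.0488 without Rat3877 only). These levels are low: Krt7 had 15 to 46 reads in the cores and 8 to 50 in the rims. Both left-out rats were chosen after seeing the data, and their rims held the highest Krt8, Krt18 and Krt19. Leaving them out favored the side of the core for these genes, so the signs there are no test. The call of Krt7 without both rats comes from the same choice.

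Host genes of the basal program showed 3 of 11 tested lower in the core and 1 higher (median -1.28). Over all rat genes tested, 20.1% were called lower, 17.5% higher and 37.6% in either direction, so these counts lie near that share. The desmosome protein Pkp1 (13.6 ± 6.47 CPM in the core, against 51.0 ± 14.4 CPM in the rim, -1.98 ± 0.33, limma adjusted p = 0.00225) and Itgb4 (-1.28 ± 0.33, 0.0159) led the decreases, and the integrin Itga6 was higher (0.58 ± 0.12). Of 13 luminal program genes, Cd24 was lower (-2.35 ± 0.19, 0.000102) and the protease St14 higher (0.76 ± 0.14). Of 10 keratin partners 4 were lower, led by Dsp (-1.92 ± 0.56) and Jup (-1.44 ± 0.13), and Krt75 of the other keratins was higher (1.93 ± 0.57). Without Rat3877, 1 basal program and 3 partner genes were lower and 0 other keratins were called by limma.

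Of the other marker lists between rat core and rim, the changes were Acta2 (-1.35 ± 0.29), Wt1 (-2.70 ± 0.74), Msln (-0.64 ± 0.18) and Hopx of the alveolar list (0.55 ± 0.15), all at a limma adjusted p under 0.05. Of the 2 luminal mammary, 3 epidermal, 4 adipocyte, 5 skeletal muscle and 4 general epithelial genes tested, 0 were called.

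In rat lung, where airway and alveolar epithelium carry simple keratins, the luminal members were the main keratins. Krt7 had 499, 340.2, 428 and 439 CPM in the lungs of Rat3877, Rat3876, Rat3875 and Rat3869 and 0.512 CPM in the lung of Rat3789. Krt8 had 274, 283, 233 and 316 CPM in these 4 and 27.8 CPM in Rat3789, and Krt18 had 122, 128, 124 and 143 CPM against 8.25 CPM. Krt19 had 161, 112, 128 and 125 CPM, against 1.42 CPM in Rat3789. The 4 lungs with surfactant genes lay above all rims in each of these genes, and the lung of Rat3789 lay within the range of the rims or below it.

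Over all 5 lungs, Krt8 (3.89 ± 0.99, limma adjusted p = 0.0183) and Krt18 (4.19 ± 1.2, 0.030) were called higher than in the rim, while Krt7 (4.67 ± 1.73, 0.079) and Krt19 (4.21 ± 1.63, 0.0912) were not. Without the lung of Rat3789 all 4 were called: Krt7 at 6.61 ± 0.48 (4.56e-06), Krt19 at 5.51 ± 1.26 (0.00681), Krt18 at 4.98 ± 1.06 (0.00442) and Krt8 at 4.55 ± 0.87 (0.0024). With the rat as a block all 4 were called as well, with Krt7 at 6.32 (0.000114). Krt8 and Krt18 lost their call without Rat3869 or Rat3875, and Krt18 also without Rat3867. Of the 7 members tested, 2 were called higher over all 5 lungs, where 10.5% of 13841 rat genes were called higher, 11.6% lower and 22.1% in either direction. Without Rat3789, 2361 of 14160 rat genes were called higher and 2024 lower. With the block, 1886 of 13841 were called higher and 1804 lower.

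The basal members were low in lung but not alike. Krt5 had 0 reads in the 4 lungs with surfactant genes, where a count of 0 allows up to 3 reads, and 2 reads in Rat3789, so it failed the filter and was not tested. Krt14 had 3.19, 15.01, 5.43, 2.49 and 1.88 CPM in the lungs of Rat3877, Rat3876, Rat3875, Rat3869 and Rat3789. Krt15 had 2.31 to 3.30 CPM and Krt17 2.92 to 6.51 CPM in the first 4, and 0.398 and 0.0569 CPM in Rat3789. Krt14 (-1.17 ± 1.48), Krt15 (-1.98 ± 1.5) and Krt17 (-1.53 ± 1.37) were not called against the rim, with intervals of -4.43 to 2.09, -5.30 to 1.34 and -4.55 to 1.49. Over all 16 fits, that without Rat3789 among them, Krt14 ranged from -3.21 to 0.24. Krt15 ranged from -4.20 to -0.31 and Krt17 from -2.42 to 0.07. Krt15 was called in 1 of these fits, and Krt14 and Krt17 in 0.

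Of the other keratins tested between rat lung and rim, 0 of 6 were called by limma over all 5 lungs and 4 of 8 without Rat3789. The fit without Rat3789 called 4385 of all 14160 rat genes, 2361 of them as higher. Krt80 was at 53.8 to 122 CPM in the 4 lungs with surfactant genes, 0.398 CPM in Rat3789 and 0.556 to 5.13 CPM in the rims, and Krt79 was at 23.0 to 42.1, 2.45 and 0.495 to 9.77 CPM in the same order. Of 8 alveolar and airway markers 8 were higher (median 6.60), led by Sftpd (8.0 ± 1.64, adjusted p = 0.00613) and Sftpb (7.46 ± 2.01, 0.0228), and 4 of 4 mesothelial markers were, led by Lrrn4 (7.12 ± 0.43) and Upk3b (6.99 ± 0.49). Lrrn4 and Upk3b passed the filter through the lungs alone. Without Rat3877, 2 of 8 alveolar and 3 of 4 mesothelial markers were called higher, and without Rat3789 8 of 8 and 3 of 4.

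Of 10 keratin partners 3 were higher in rat lung, led by Evpl (3.66 ± 0.99, limma adjusted p = 0.0233) and Dsp (3.10 ± 0.82, 0.0208), and Vim, the mesenchymal filament protein, was lower (-0.86 ± 0.15). Of 10 basal program genes 2 were higher, Lamb3 (3.25 ± 0.97) and Itga6 (0.65 ± 0.19), and 2 lower, Tfap2c (-3.21 ± 0.81), which passed the filter mainly through the rims, and Pkp1 (-2.22 ± 0.31). Of 17 luminal program genes 2 were higher, Prom1 (3.50 ± 0.99) and St14 (0.93 ± 0.10), and 10 were without Rat3789. Over all rat genes tested on the 5 lungs, 10.5% were called higher and 11.6% lower. In the fit without Rat3789, 2361 of 14160 rat genes were called higher and 2024 lower. Without Rat3877 the higher counts were 0 for basal program, 1 for luminal program and 1 for partner genes. Of 5 myoepithelial genes, Acta2 (-2.40 ± 0.18) and Tagln (-1.46 ± 0.33) were lower and Mylk higher (1.45 ± 0.47), with 2 lower and 1 higher without Rat3789 as well. In the luminal mammary (1 tested), epidermal (3), adipocyte (4), skeletal muscle (5) and general epithelial (5) lists 0 were called over all 5 lungs, while without Rat3789 4 general epithelial genes were higher and 1 luminal mammary and 1 adipocyte gene were lower.

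**Figure D5:**
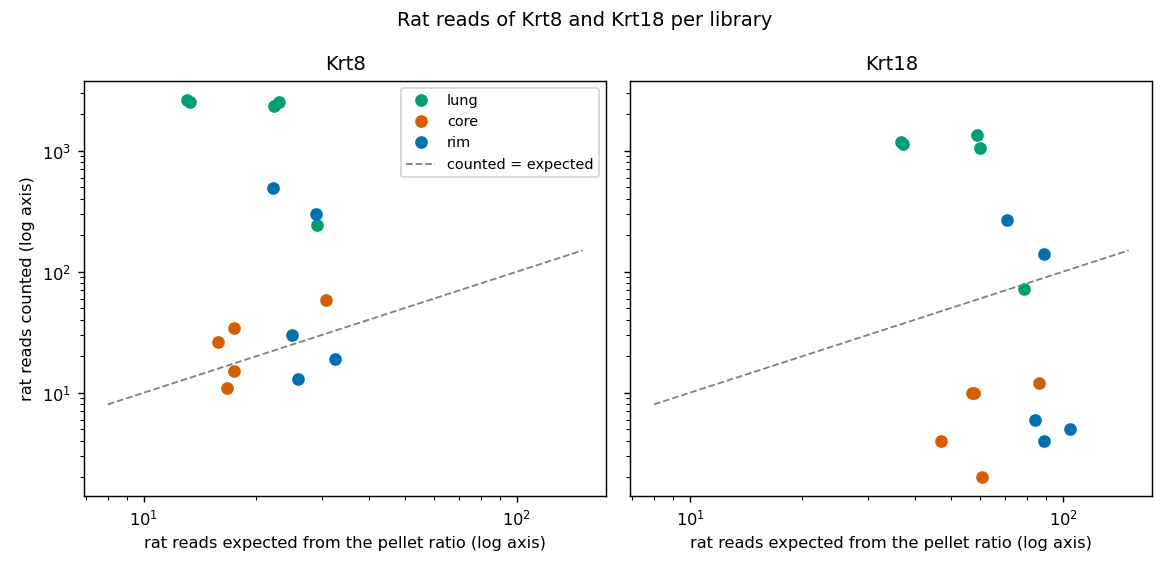
Rat reads counted (log axis) for Krt8 and Krt18 in each library, against the rat reads expected from the pellet's rat reads per mouse read times the library's mouse reads (log axis). Points under the dashed line had fewer rat reads than expected. All cores and 3 rims lie under it for Krt18.

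Because 4T1 cells carry much Krt8 and Krt18, reads assigned to the wrong species matter most for these genes. In the pellet, which held no rat cells, 102 reads were assigned to rat Krt18, 36 to rat Krt8, 5 to rat Krt7, 2 to rat Krt17 and 1 to each of the other 4 members. The same pellet held 40 rat reads of Adipoq, 33 of Sftpc and 12 of Csn3, genes of other tissues. The 5 skeletal muscle markers summed to 28435 CPM of its 213086 rat reads. Its rat reads were therefore not confined to the keratins of 4T1 cells.

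At the pellet's ratio, the mouse reads of a library would bring 47.1 to 104 rat reads of Krt18 in the cores and rims. The cores held 2 to 12 such reads, and the rims held 140 (Rat3877), 267 (Rat3876), 5 (Rat3875), 6 (Rat3869) and 4 (Rat3867). For Krt8, 15.7 to 32.6 rat reads were expected, with 11 to 58 counted in the cores and 298, 496, 19, 30 and 13 in the rims in the same order. So the rims of Rat3877 and Rat3876 lay above the expected number in both genes, by 10.3 and 22.3 times for Krt8 and by 1.57 and 3.77 times for Krt18. For Krt18 every core and the other 3 rims lay below it. The pellet's ratio thus did not hold for Krt18 in these libraries. The multiples given in this paragraph are descriptions and do not measure misassigned reads. The 4 lungs with surfactant genes held 106 to 201 times the expected rat Krt8 reads, and the lung of Rat3789 held 8.38 times for Krt8 and 0.914 times for Krt18.

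In the other direction, the gland libraries held 155 and 252 mouse reads of Krt8, 143 and 235 of Krt18, 18 and 88 of Krt7, and 11 and 16 of Krt19, in library 1 and library 2. For Krt7 this was more than their rat reads (4 and 11) in both libraries. In library 1 mouse reads outnumbered rat reads for every member except Krt17 (5 against 7), with 406 mouse and 62 rat reads over the 8 members. Library 2 held 636 mouse and 2587 rat reads of them. The glands also held 26 and 24 mouse reads of Krt5, of which the pellet had 0. Taken gene by gene, the gland's ratio would bring 22338 to 32591 mouse Krt7 reads in the 4 lungs with surfactant genes, where 432 to 1862 were counted, and for Krt19 too more mouse reads than were counted in these lungs. That planned subtraction could therefore not be used. In its place, chosen after seeing the data, the overall rate was taken, which is far below the gland's ratio for these genes, and a larger share of rat reads was not tested. Reducing the mouse members of each library by that rate, 0.0191 mouse reads per rat read over both gland libraries (1.78% of the reads of library 1 and 1.96% of those of library 2 were mouse), left Krt7 at -3.42 ± 0.40 between lung and rim and at -1.98 ± 0.29 between lung and core, and Krt14 at -3.98 ± 0.53 between core and rim.

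The genes most like the keratins in pattern were ranked by Pearson's r of log2 CPM over the 15 lung, core and rim libraries, which share group differences and depth, so r is a description. Among 10731 mouse genes, Lamb3 (0.96), 9130008F23Rik (0.95), Sorcs2 (0.94), Cnnm4 (0.93) and Trim68 (0.92) lay nearest to Krt14. Of the other members, Krt19 ranked 15th (0.90), Krt7 74th (0.83), Krt18 451st (0.65) and Krt8 885th (0.55) in likeness to Krt14. Among the nearest to mouse Krt8 were Krt18 (0.94), Hnrnpk (0.90), Shtn1 (0.88) and Prelid1 (0.87).

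Among 11289 rat genes, Col17a1 (0.93), a collagen of basal cell hemidesmosomes, lay nearest to Krt14, followed by Tmem8a (0.83), Dhx58 (0.80), Mon1a (0.76) and Elp6 (0.75). Rat Krt15 (0.89) and Krt17 (0.77) had mean levels below the limit for ranking. Nearest to rat Krt8 were Krt18 (0.98), Lcn2 (0.98), Met (0.97), Mpzl2 (0.96) and AABR07071876.1 (0.96), and Krt19 (0.94) ranked 6th.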

How the data were processed

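Per the submitters' processing notes, builds GRCm38 and Rnor_6.0 and the tools Trim Galore, STAR, featureCounts and limma were used by the authors. The sources used here do not state their versions, how reads were assigned to a species, how reads with several matches were handled or which strand setting was used. For gland and pellet, the authors deposited read counts per gene (55487 mouse and 32883 rat genes). For core, rim and lung, they deposited a normalized signal per gene, which equals whole reads plus 0.5 times a constant of the library (100% of values whole within 0.01 reads) and is treated as CPM with that 0.5 built in. All columns of values were mapped (0 left over). Gland library numbers follow the control table and differ from those of the labels.

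Log2 deposited values were tested two-sided with limma 3.58.1 (trend; R 4.3.3). Genes entered with 1 CPM or more in 5 or more of the compared libraries, and calls needed a Benjamini-Hochberg adjusted p under 0.05. The scale has no further pseudocount, and fold changes on this scale understate the change of genes with few reads. Core and rim were fitted with the rat as a block, because the labels name the same rats; deviations of core and rim of a rat correlated at -0.18 to 0.24 in mouse and 0.03 to 0.34 in rat genes. Lung comparisons had no block, since the lungs and tumors come from partly different rats. Those comparisons share libraries, so their values stand side by side. P-values of the core and rim fits measure the spread of that difference across rats. Those of the lung fits measure the spread between libraries of a group. The lung fits treat libraries of the same rat as independent. edgeR 4.0.16 and limma-voom ran on the recovered reads; Clopper-Pearson intervals came from scipy 1.17.1. The fits were tested on simulated data.

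Per-kilobase levels used the shortest GENCODE M21 transcript of the longest coding sequence. No rat annotation was used here, so rat positions and sequences are not given.

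The members and all lists were chosen with earlier results of these data known. Named by rule were all 8 members, from each list the 2 called genes that increased most and the 2 that decreased most (luminal mammary, myoepithelial, epidermis and hair follicle, adipocyte, skeletal muscle, alveolar and airway, mesothelium, general epithelial, basal program, luminal program, keratin partners, other keratins) and the 5 genes most like Krt14 and Krt8 of mean log2 of at least 2. Other genes (Trp63 in core and rim, markers beside the rims, Krt79 and Krt80 of rat) were named after their values were seen. Some items that these rules name are not reported here.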

Additional observations from a re-analysis of the deposited data

Results flagged for a closer look

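Of 48 sets of 5 libraries (a member in a group of one species), 10 held a library whose gap to the next, on the log2 scale, was above the 95% critical value of Dixon's test, 0.71 of the range; chance flags about 1 in 20 sets.

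In mouse genes, all 3 cases were the rim of Rat3877, the lowest rim in Krt14 (14.99 CPM), Krt7 (168 CPM) and Krt19 (15.9 CPM). Its Krt8 and Krt18 did not stand apart.

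In rat genes, the other 7 cases were the lung of Rat3789. It was the lowest lung in Krt15 (0.398 CPM), Krt17 (0.0569 CPM), Krt7 (0.512 CPM), Krt8 (27.8 CPM), Krt18 (8.25 CPM) and Krt19 (1.42 CPM), and the highest in Krt5 (0.284 CPM, 2 reads). The other lungs had 0 reads of Krt5, so that gap is set by the 0.5 reads built into the scale and says nothing of Krt5.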

How the results depend on the processing

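Of 459 member results under alternatives, 393 kept direction and side of the threshold, 29 lost their call, 21 gained one and 16 turned direction. Leaving out 1 rat in turn gave 1260 to 2422 genes called in mouse core against rim (2585 with all) with 2 to 5 members (6), 3805 to 4763 in rat core against rim (5092) with 0 to 3 members (0), 1323 to 2897 in mouse lung against rim (2603) with 4 to 6 members (6), 2998 to 5046 in mouse lung against core (4736) with 1 to 2 members (1), and 1509 to 4385 in rat lung against rim (3065) with 0 to 4 members (2). Without Rat3876 and Rat3877, chosen after seeing the data, the counts were 3392 genes and 1 member in rat core against rim, 1071 genes in mouse lung against rim, 1814 in mouse lung against core and 1072 in rat lung against rim.

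With the replicate block, 3 members were called in mouse lung against core and 4 in rat lung against rim, where Krt14 (0.24) and Krt17 (0.0701) turned direction; the block, or its removal between core and rim, changed no other member's call except those given beside the results. Members called in rat core against rim were 1 by edgeR and 4 by limma-voom, and in rat lung against rim 4 and 1. By these 2 methods, 4993 and 5234 of all 13559 genes were called in rat core against rim. In rat lung against rim they called 3251 and 2555 of 13841. The block gave 4797 of 13058 genes in mouse lung against core and 3690 of 13841 in rat lung against rim. After subtracting reads of the other species, the members called were 2 in mouse lung against core and 1 in rat lung against rim. For rat genes that subtraction used the pellet's ratio, with the limit given above for Krt18.

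In rat core against rim, Krt8 (1.14) and Krt18 (0.83) turned direction without Rat3876 and Rat3877, and Krt19 did by edgeR (-0.87), limma-voom (-1.97) and with 1 CPM added (-0.42). Leaving out 1 rat gave -1.31 to 0.0745 for Krt8 and -0.71 to 0.86 for Krt19 there, and in mouse lung against core -0.75 to 0.13 for Krt14 and -0.11 to 0.0776 for Krt8, which total-count scaling put at 0.0741. The cause was not tested. Total-count scaling raised the share of calls that were higher to 60.8% from 49.4% (mouse lung against rim), to 62.0% from 47.2% (mouse lung against core) and to 66.0% from 47.6% (rat lung against rim, where the median of all genes was 0.15). Low read numbers limit mouse Krt5, Krt15 and Krt17.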
